A study of Mus musculus with 8 samples.

Results

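Ankle joints of mice that carry a human TNF transgene and are labelled functionally null for sphingosine kinase 1 were compared with ankle joints of wild-type mice. The members are all probe sets of the deposited array table that the platform annotation assigns to 1 gene, read on the 3 arrays labelled hTNF and Sphk1 null and the 2 wild-type arrays, which together are 5 of the 8 arrays of the series. Of 45101 probe sets, 34945 had 1 gene, and 20770 of these were bright enough to be tested, standing for 12362 genes. The wild-type group has normal TNF and normal sphingosine kinase 1 activity. The group called null below, after its label, carries the human TNF transgene, given as overexpression, together with the Sphk1 null state. Another group of 3 arrays carries the transgene with normal sphingosine kinase 1 and is called hTNF below; it served to test which values differ between the 2 transgenic groups. All mice were adults of 5 months, and whole ankle joints were dissected, so the RNA can come from bone, cartilage, synovium, tendon, muscle, fat, nerve and any skin or marrow left on the joint. The promoter of the transgene, the strain and the structure of the null allele are not given in the sources used here, and there was no group null for Sphk1 without the transgene. The comparison therefore holds the transgene and the null label together. Each label speaks of 1 mouse, which signal of both sexes on 3 arrays goes against, and none speaks of separate litters, so the p-values cover only array-to-array variation, part of which can be technical.

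TNF is a cytokine that binds the receptors TNFR1 and TNFR2 and switches on the transcription factor NF-kB, which drives genes of chemokines, adhesion molecules and proteases. Mice with a human TNF transgene are a long-used model of inflammatory erosive arthritis, in which the synovium fills with macrophages, cartilage is degraded and osteoclasts resorb bone. Sphingosine kinase 1 makes sphingosine 1-phosphate, a lipid that acts on the receptors S1PR1 to S1PR5, guides lymphocyte traffic and has been linked to TNF signalling. The question the series title names is the part of sphingosine kinase 1 in inflammation caused by human TNF.

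The values are log2 brightness with array medians between 6.84 and 6.89. Correlations across probe sets were 0.962 to 0.985 among the arrays labelled null, 0.981 between the wild-type arrays and 0.862 to 0.894 between the groups. Null replicate 2 had the narrowest spread, with quartiles at 5.50 and 8.54, and null replicate 1 the widest, at 5.25 and 8.80. The quartiles of the remaining arrays were 5.33 to 5.41 and 8.64 to 8.71. Xist, the RNA of the inactive X chromosome, and the Y-linked Eif2s3y differed within groups. Wild-type replicate 1 had Eif2s3y at 8.86 and Xist at 7.45, while null replicates 2 and 3 had Xist at 12.89 and 13.1 and Eif2s3y at 3.46. Null replicate 1 carried both, Xist at 11.19 and Eif2s3y at 9.14, as did wild-type replicate 2, with 13.09 and 6.91, and hTNF replicate 1, with 13.05 and 6.60. Both signals at these levels go against the label of 1 mouse per array; the labels do not say whether animals were pooled, so an array may not be 1 animal. Without these 3 arrays, a setting chosen after seeing the data, 9333 probe sets were called against 9395 with all arrays. That fit has 1 wild-type array, assumed to vary like the other groups, so the count does not show stability. Markers of muscle, cartilage, bone, synovial lining, fat and macrophages were measured on every array. The liver marker Alb lay between 5.84 and 7.26 on the 8 arrays, and Ttr, another, between 6.96 and 7.7, above the filter value of 6.87.

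Inflammatory and phagocyte genes were far higher, and muscle, fat and oxidative genes lower, on the arrays labelled null than on the wild-type arrays. Of 24115 tested probe sets, 9395 (39.0%) were called at a limma adjusted p under 0.05, 4513 higher (18.7%) and 4882 lower (20.2%). Counted once per gene, 5311 of 12362 were called (43.0%), 2366 higher (19.1%) and 2945 lower (23.8%), and the median difference over all genes was -0.02. "Rose" and "fell" are used below only for called genes, a difference is the null mean minus the wild-type mean in log2 units, and an error is its standard error with 3 null and 2 wild-type arrays. Changes of at least 4-fold were seen in 161 genes that rose (1.3%) and 250 that fell (2.02%), and changes of at least 8-fold in 46 that rose (0.372%) and 9 that fell (0.0728%). Of the 46, 24 had a wild-type mean under the filter value of 6.87, so their folds start from dim signal. Of 5217 genes with more than 1 tested probe set, 3050 had at least 1 called, 1694 had at least 2 called in a single direction, and 40 had probe sets called in both directions. In bulk tissue, fewer cells of a type and less RNA per cell cannot be told apart, which holds for each gene group below.

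**Figure D1:**
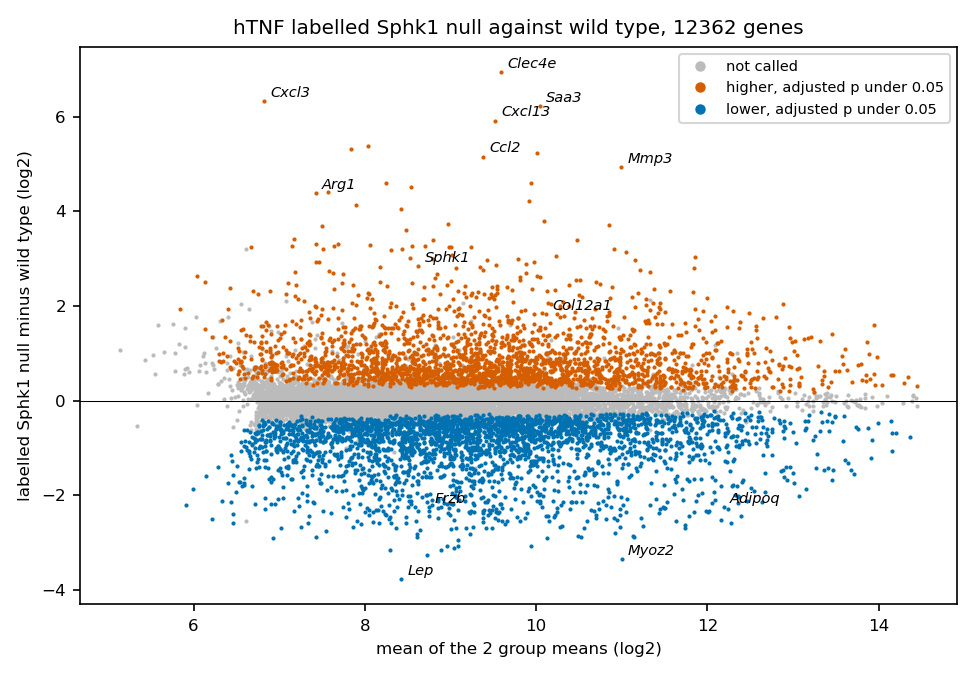
Difference between the null and wild-type group means (y axis, log2) against the mean of both group means (x axis, log2) for 12362 genes, with called genes coloured. The largest differences are upward, reaching 6.94 for Clec4e, while the lowest, Lep, is at -3.76.

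The gene with the largest rise was Clec4e, which encodes Mincle, a macrophage receptor for microbial glycolipids and dead cells. Clec4e rose from 6.11 and 6.14 to 13.21, 13.08 and 12.89, a difference of 6.94 ± 0.23 (adjusted p = 9.31e-07). Next came neutrophil-attracting chemokines and an acute-phase protein. Cxcl3 rose from 3.55 and 3.76 to 10.4, 9.93 and 9.64, a difference of 6.34 ± 0.26 (adjusted p = 2.05e-06). Saa3 rose from 6.9 and 6.96 to 13.28, 13.05 and 13.15, a difference of 6.23 ± 0.26 for this serum amyloid A made by macrophages and stroma. The 12 genes with the largest rises were taken from those whose groups do not overlap, as holds for 60.8% of all genes, so their separation is part of the choice. In 8 of the 12, all but Saa3, Mmp3, Clec4d and Clec4n, the wild-type mean lay under the filter value, so they were tested only because they are bright on transgenic arrays, and their sizes and order, Clec4e and Cxcl3 included, start from dim signal. Cxcl13 rose from 6.32 and 6.8 to 12.74, 12.63 and 12.06, a difference of 5.92 ± 0.36 for the chemokine that gathers B cells. Ccl2 rose from 6.99 and 6.62 to 12.08, 12.03 and 11.8, the monocyte chemoattractant, by 5.16 ± 0.15. Mmp3 rose from 8.85 and 8.21 to 13.46, 13.45 and 13.47, stromelysin-1, by 4.93 ± 0.17. The other 6 were Cxcl5 (5.38), Cxcl2 (5.32), Clec4d (5.23), C1qtnf3 (4.60), Clec4n (4.60) and Acod1 (4.52), which makes itaconate in activated macrophages. All 3 null arrays were close together for Mmp3 and Clec4n and further apart for Cxcl3.

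The largest fall was that of leptin, the fat-cell hormone. Lep fell from 10.32 and 10.29 to 6.83, 6.72 and 6.1, a difference of -3.76 ± 0.22, 13.5-fold lower (adjusted p = 8.92e-06). Myoz2 fell from 12.64 and 12.7 to 10.03, 9.06 and 8.9, a Z-disc protein of slow muscle, a difference of -3.34 ± 0.30. Cidec fell from 10.15 and 9.59 to 7.17, 6.38 and 6.59, a lipid-droplet protein, a difference of -3.16 ± 0.26. In these and the other 9 genes, chosen in the same way, the null arrays mostly spread more widely than in the rises, Lrrc39 being an exception. The 9 were Thrsp (-3.26), Nnat (-3.16), Cyp2e1 (-3.10), Acsl6 (-3.07), Smtnl1 (-3.07), Ppp1r27 (-3.06), Npr3 (-2.95), Fabp3 (-2.90) and Lrrc39 (-2.90). For Thrsp and Acsl6 another, dimmer probe set differed by 0.11 and -0.28 and was not called.

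**Figure D2:**
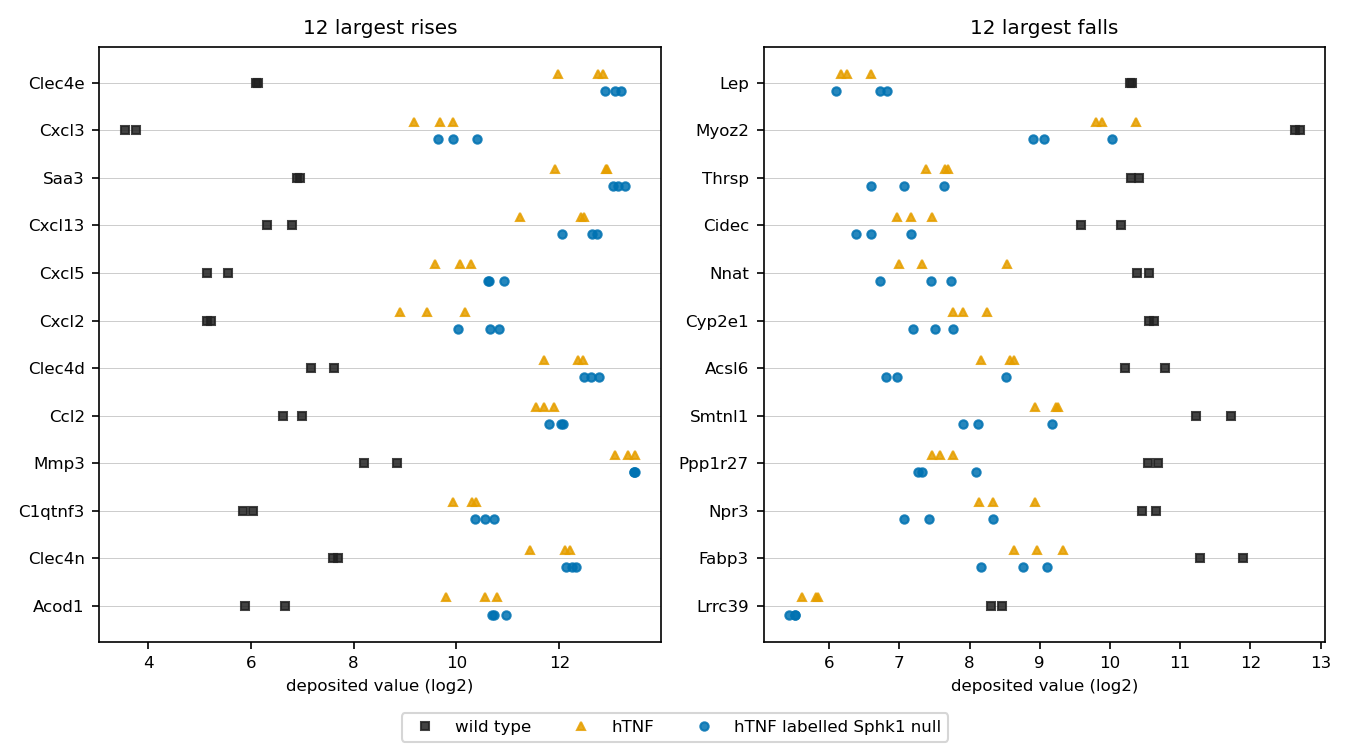
Deposited log2 values (x axis) of the 12 genes with the largest rises and the 12 with the largest falls, 1 symbol per array (squares wild type, triangles hTNF, circles hTNF labelled Sphk1 null). Genes were chosen so that circles and squares do not overlap, and the hTNF triangles lie on the circles' side in every gene. The hTNF arrays counted in the filter and the variance estimate, and both transgenic groups are set against the same wild-type arrays. Their position is therefore not independent of the choice.

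Sphk1 itself, the gene the labels call null, was highest on the arrays labelled null. It read 7.25 and 7.16 on the wild-type arrays and 8.63, 8.65 and 8.28 on the hTNF arrays. On the arrays labelled null Sphk1 read 10.22, 9.94 and 10. The difference from wild type was 2.85 ± 0.15, or 7.2-fold (adjusted p = 5.01e-06), and that from hTNF was 1.53 ± 0.13 (adjusted p = 0.0164). This Sphk1 level runs against a simple reading of the label as loss of the transcript. The labels say functionally null, and whether the probe set lies inside the part removed or altered by the null allele cannot be told from the sources used here, so it checks no label. A second Sphk1 probe set was under the filter, at 6.12 and 6.39 on the wild-type arrays and 6.68, 6.33 and 6.41 on the arrays labelled null. BC018473, an unnamed transcript, was the only other gene that differed between the transgenic groups. It read 5.31 and 5.15 in wild type, 5.04, 5.15 and 5.13 in hTNF and 7.91, 7.05 and 7.88 in null. The difference from wild type was 2.38 ± 0.26 and that from hTNF was 2.51 ± 0.23 (limma adjusted p = 0.0164). Only the null arrays lay above the filter value of 6.87, so BC018473 was tested only because it is bright there. It lies on chromosome 11, 7 tested genes from Sphk1 in the order of the gene table. St6galnac2, a sialyltransferase between them, differed from hTNF by 1.09 (adjusted p = 0.125, not called). Of the 24 tested genes nearest to Sphk1, a range chosen after values were seen, 9 rose and 3 fell against wild type. Over all genes 19.1% rose and 23.8% fell. Of the same 24, 6 had an unadjusted p under 0.05 against hTNF, beside 775 of 12362 over all genes.

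Of 14 measured genes of the sphingosine 1-phosphate pathway, 7 rose, 3 fell and 4 were not called, with a median of 0.42. Among all genes 19.1% rose and 23.8% fell, and the 3 that fell here are near the latter share. Enzymes that remove the lipid inside the cell rose, and of the surface phosphatases Plpp1 and Plpp3 fell and Plpp2 rose. Sgpl1, the lyase that cleaves it irreversibly, read 9.14 and 9.05 in wild type and 10.6, 10.27 and 10.41 in null (adjusted p = 5.69e-05). Sgpp1, its intracellular phosphatase, read 9.46 and 9.42 and 10.55, 10.29 and 10.15 (difference 0.89 ± 0.17). Plpp3, a surface phosphatase of lipid phosphates, read 12.26 and 12.25 and 11.52, 11.37 and 11.26 (difference -0.87 ± 0.10). Cib1, a calcium-binding protein that carries the kinase to the membrane, rose by 0.91. Among receptors, S1pr2 rose by 0.79 (adjusted p = 0.00799), losing the call without wild-type replicate 2 (0.52), and S1pr3 fell by 0.38, losing it without wild-type replicate 2 (-0.23), null replicate 2 (-0.34), null replicate 3 (-0.38) or hTNF replicate 3 (-0.38). Other S1pr3 probe sets differed by 0.16 and 0.22, and another S1pr2 probe set differed by 0.3 and was not called. S1pr1 differed by 0.33 and the transporter Spns2 by 0.34, neither called. Sphk2, the second kinase, rose by 0.49 but was not called without wild-type replicate 1 (0.53), wild-type replicate 2 (0.45) or null replicate 3 (0.47), and another probe set differed by -0.14. Of 25 genes of ceramide and sphingomyelin metabolism, 12 rose and 1 fell, led by Ugcg, the glucosylceramide synthase (1.80), and the ceramide synthase Cers6 (1.71). Without wild-type replicate 1, 6 of them rose, and without wild-type replicate 2, 8.

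**Figure D3:**
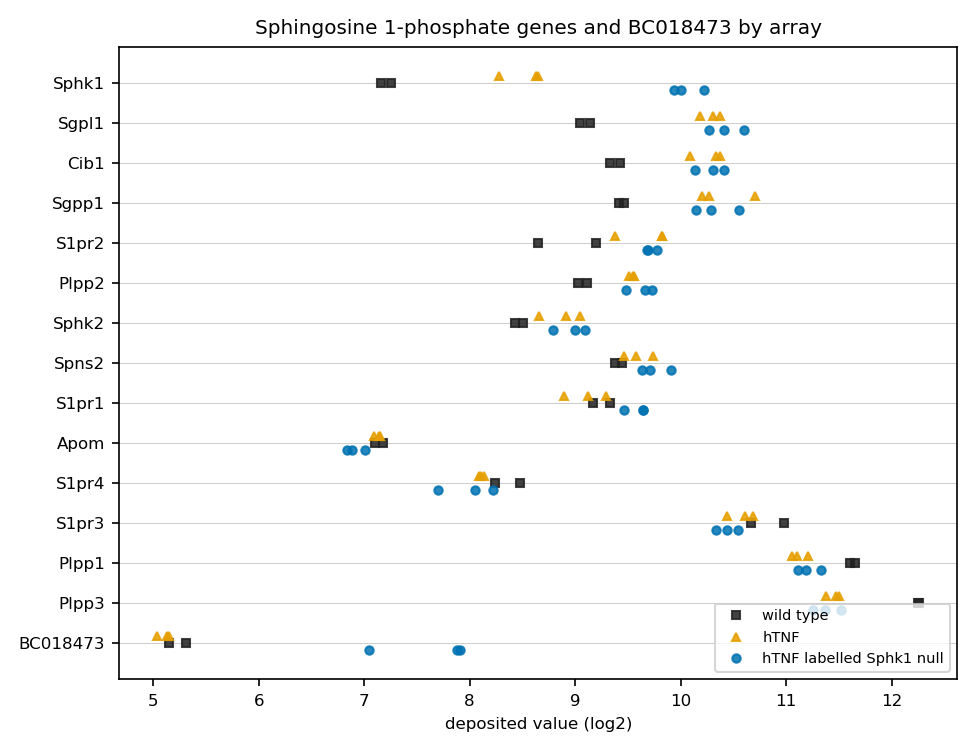
Deposited log2 values (x axis) of the 14 measured sphingosine 1-phosphate genes and BC018473, 1 symbol per array (squares wild type, triangles hTNF, circles hTNF labelled Sphk1 null). Sphk1 steps up from wild type through hTNF to null, and BC018473 is higher on the 3 arrays labelled null than on the other 5.

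TNF signalling genes and NF-kB feedback genes were higher on the arrays labelled null. Of 19 measured TNF receptors and adaptors, 13 rose and none fell (median 0.68). Tnf rose from 6.88 and 6.75 to 8.34, 8.12 and 7.99 for the mouse gene, a difference of 1.34 ± 0.14. Tnfrsf1b rose from 9.05 and 9.05 to 11.48, 11.38 and 11.32, which encodes TNFR2, by 2.34 ± 0.19 (5.07-fold). Tnfrsf1a, which encodes TNFR1, rose by 0.39, losing the call without wild-type replicate 2 (0.32). Thus the second receptor changed more than the first in these arrays, but the difference between them was not tested. Traf1 rose by 2.70 and Birc3 rose by 2.07; both are adaptors of the receptor complex. Of 16 NF-kB subunits and inhibitors, 15 rose (median 1.33), against 19.1% of all genes. The inhibitors led: Nfkbie, an IkB protein, by 3.24 ± 0.21, and Tnfaip3, the A20 enzyme that shuts the pathway off, by 3.00 ± 0.20. Nfkbia read 12.36 and 12.67 in wild type and 13.81, 13.88 and 13.83 in null (1.32 ± 0.10). Among subunits, Relb rose by 2.24, Nfkb2 rose by 1.78, and Rela, the main activator, rose by 0.68. Ikbkg, the remaining member, was not called by its brightest probe set (0.14), while 4 dimmer ones were, at 0.58 to 0.85.

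Chemokine genes held many of the largest rises. Of 13 CXC chemokines, 8 rose and 1 fell (median 1.06), and of 15 CC chemokines, 10 rose and 2 fell (median 1.29). Over all genes 19.1% rose and 23.8% fell. In 4 of the 13 and 6 of the 15 the wild-type mean lay under the filter value, so those folds start from dim signal. Among these are Cxcl5, Cxcl2, Ccl7 and Ccl17, and 2 further members of each list were too dim to test. Cxcl5 rose from 5.15 and 5.55 to 10.93, 10.64 and 10.61 and Cxcl2 rose from 5.14 and 5.22 to 10.82, 10.65 and 10.03, differences of 5.38 ± 0.21 and 5.32 ± 0.33. The groups stood far apart for these ligands of the neutrophil receptor CXCR2. Cxcl1, another ligand of that receptor, rose by 0.78, losing the call without wild-type replicate 2 (0.67). Ccl7 rose from 6.68 and 6.12 to 10.6, 10.47 and 10.29, a monocyte chemokine, by 4.05 ± 0.18. Ccl17 rose by 3.60 and Ccl9 rose by 2.76. Among 14 chemokine receptors 6 rose and 1 fell, with Cxcr4 (2.25) and the monocyte receptor Ccr2 (2.23) leading.

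The start regions of some of these genes hold an NF-kB motif. In the RefSeq promoter table of build GRCm38.p6, windows of 300 bases around the start, most of them upstream, were available for 9946 tested genes, and a kappa B motif was searched on both strands. It was in 58 windows (0.583%), in 4 of 125 genes that rose at least 4-fold (3.2%) and in 1 of 193 that fell at least 4-fold (0.518%). The 4 are Cxcl2, Cxcl3, Slamf8 and Tnn, and 2 of the 13 NF-kB list genes with a window hold it too, Nfkb2 and Nfkbia. The windows below, chosen after values were seen, are shown because 3 neighbouring CXC chemokine genes share 1 exact match, in capitals, as does Nfkbia on the other strand. A loose motif of the muscle factor MEF2, with any letters in its middle, was also searched on both strands. A match to it need not be a MEF2 site. It was in 386 windows (3.88%) and in 24 of 193 genes that fell at least 4-fold (12.4%). Of 125 that rose as much it was in 2 (1.6%). Of 25 contractile muscle genes it was in 2 (8.0%), and of 13 calcium release and muscle energy genes in 2 (15.4%). Windows of the muscle genes Myoz2 and Lrrc39 are shown for this motif. A match is a description of letters and no test was run on it.
Cxcl1, chr5:90890995-90891294, plus strand: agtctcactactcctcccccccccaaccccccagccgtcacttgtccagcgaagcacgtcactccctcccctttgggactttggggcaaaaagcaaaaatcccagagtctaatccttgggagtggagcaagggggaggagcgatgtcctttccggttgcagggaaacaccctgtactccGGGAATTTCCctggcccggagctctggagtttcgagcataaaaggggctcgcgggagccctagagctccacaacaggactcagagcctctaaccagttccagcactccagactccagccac
Cxcl2, chr5:90903649-90903948, plus strand: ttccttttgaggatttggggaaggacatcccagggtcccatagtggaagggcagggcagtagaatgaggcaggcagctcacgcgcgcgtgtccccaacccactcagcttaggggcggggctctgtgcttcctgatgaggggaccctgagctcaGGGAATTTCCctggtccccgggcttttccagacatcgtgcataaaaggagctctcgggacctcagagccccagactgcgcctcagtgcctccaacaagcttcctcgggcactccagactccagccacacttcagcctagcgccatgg
Cxcl3, chr5:90785851-90786150, plus strand: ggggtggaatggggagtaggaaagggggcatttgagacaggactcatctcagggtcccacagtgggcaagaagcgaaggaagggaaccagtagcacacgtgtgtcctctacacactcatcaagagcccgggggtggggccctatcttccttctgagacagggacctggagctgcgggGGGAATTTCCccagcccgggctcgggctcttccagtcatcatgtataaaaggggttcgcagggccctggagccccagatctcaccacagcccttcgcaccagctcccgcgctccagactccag
Nfkbia, chr12:55492598-55492897, minus strand: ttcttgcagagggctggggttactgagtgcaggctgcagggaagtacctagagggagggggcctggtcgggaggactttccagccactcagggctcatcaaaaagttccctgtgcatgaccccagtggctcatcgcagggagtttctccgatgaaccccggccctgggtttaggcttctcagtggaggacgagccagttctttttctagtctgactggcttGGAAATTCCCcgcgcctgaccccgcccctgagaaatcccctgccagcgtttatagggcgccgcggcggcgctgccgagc
Myoz2, chr3:123034938-123035237, minus strand: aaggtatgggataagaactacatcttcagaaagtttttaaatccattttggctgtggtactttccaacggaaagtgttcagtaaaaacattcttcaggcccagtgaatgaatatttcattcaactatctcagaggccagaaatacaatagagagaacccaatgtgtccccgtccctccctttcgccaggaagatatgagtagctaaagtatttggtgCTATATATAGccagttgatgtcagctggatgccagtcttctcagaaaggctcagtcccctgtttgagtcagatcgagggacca
Lrrc39, chr3:116562733-116563032, plus strand: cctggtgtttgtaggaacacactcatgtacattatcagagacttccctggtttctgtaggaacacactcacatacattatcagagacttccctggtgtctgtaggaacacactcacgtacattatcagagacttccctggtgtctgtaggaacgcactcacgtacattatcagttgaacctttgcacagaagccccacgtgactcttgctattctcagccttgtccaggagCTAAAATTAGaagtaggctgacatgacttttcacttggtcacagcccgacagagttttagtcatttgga

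The AP-1 letters TGAGTCA were in 500 windows (5.03%), in 24 of 125 genes that rose at least 4-fold (19.2%), among them Mmp3, Mmp13, Il1rn, Sele and Sphk1, and in 18 of 193 that fell (9.33%). An interferon response motif, ISRE, was in 363 windows (3.65%) and in 14 of 125 genes that rose at least 4-fold (11.2%). Of 193 that fell as much it was in 2 (1.04%). Shares of these motifs were not tested.

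Of 17 measured members of the interleukin 1 family 15 rose and none fell (median 1.22). Il1b rose from 8.1 and 8.3 to 12.2, 12.11 and 11.65, a difference of 3.79 ± 0.25 (adjusted p = 1.26e-05). Il1rn, the natural antagonist of the receptor, rose by 3.02 ± 0.16. Il1a rose by 1.27. The inflammasome genes Nlrp3 (1.46), Pycard (1.70), Casp1 (1.33) and Casp4 (1.82) were among the called. Il6 and Ptgs2 had no probe set bright enough to be tested. Downstream of interleukin 6, Socs3, a feedback inhibitor of JAK-STAT signalling, read 9.55 and 9.22 and 11.5, 11.26 and 11.41 (2.00 ± 0.18), and Stat3 rose by 0.52, with 2 other probe sets at 0.17 not called. Of 11 interleukin 6 family genes 5 rose and 2 fell; of 19 JAK-STAT genes 10 rose and 3 fell, 6 rising without wild-type replicate 2. Interferon-stimulated genes were divided: of 25, 8 rose, 5 fell and 12 were not called (median 0.04), with 4 rising without wild-type replicate 1 and 5 without null replicate 3. Over all genes 19.1% rose and 23.8% fell. Oas1a rose by 1.01 and Irf1 rose by 0.89, whereas Ifit2 (-0.86) and Igtp (-0.76) fell.

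Macrophage genes were higher as a group. Of 29 macrophage and monocyte markers 22 rose and 2 fell (median 1.56). Marco rose from 5.36 and 5.58 to 9.26, 8.58 and 8.8, a scavenger receptor, by 3.41 ± 0.48. Itgam rose from 7.21 and 6.91 to 10.66, 10.18 and 10.19, the CD11b integrin, by 3.28 ± 0.20. Adgre1, a macrophage surface receptor, read 9.8 and 9.57 in wild type and 12.32, 12.01 and 11.95 in null. In all 3 genes the groups did not overlap, as holds for 60.8% of all genes. The wild-type values of Marco lay under the filter value. The 2 that fell are markers of resident tissue macrophages, Vsig4 (-1.24) and Lyve1 (-1.01), the latter also a lymphatic vessel gene, which lost its call without wild-type replicate 1 (-0.97). Cd163 (-0.41) and Folr2 (-0.17), further resident markers, were not called, though Cd163 was without null replicate 1 (-0.63). Of 11 myeloid C-type lectins 10 rose (median 2.54), among them Clec5a (3.20) and Clec7a (2.03), the beta-glucan receptor Dectin-1, while Clec10a differed by -0.05. Of 16 Fc receptor, TREM and adaptor genes 13 rose, led by Pirb (2.82) and Fcgr3 (2.09). Of 19 Toll-like receptor genes 13 rose, and Tlr2 read 9.02 and 8.97 in wild type and 12.85, 12.69 and 12.59 in null (3.72 ± 0.20).

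Of 6 listed components of the phagocyte NADPH oxidase, which makes superoxide, 5 were measured, and these 5 rose (median 2.50). Cybb rose from 10.01 and 10.67 to 13.43, 13.48 and 13.24, the catalytic subunit, by 3.04 ± 0.21, and Ncf1 rose by 2.50. Of 28 lysosomal enzymes and proton pump subunits, all 28 rose (median 0.97), from 0.30 for Lamp1 to 2.16 for Cd68, with Ctss, Ctsk and Gla at 2.04, 1.75 and 1.73. Antigen presentation was also higher: 9 of 13 class II genes and 14 of 15 class I loading genes rose, with none falling in either. H2-Ab1 read 11.87 and 11.96 and 13.78, 13.72 and 13.57 (1.78 ± 0.09), and Tapbp rose by 1.38. Of 19 complement genes 14 rose and 3 fell. The receptors C3ar1 (2.55) and C5ar1 (2.25) and factor B, Cfb (2.45), rose, while the regulators Cd59a (-1.51), clusterin, Clu (-1.40), and Cd55 (-0.84) fell, Cd55 losing the call without wild-type replicate 1 (-0.80). Iron genes followed in part, 6 of 14 rising, with Hmox1, heme oxygenase 1, at 2.97.

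Neutrophil granule genes varied between the wild-type arrays. The counts in this paragraph stand beside 19.1% of all genes that rose and 23.8% that fell. The mean of 18 such genes was 7.60 and 10.07 on the wild-type arrays and 9.61, 9.90 and 10.76 on the arrays labelled null. Of the 18, 5 rose, and without wild-type replicate 2, 13 rose. Without the 3 arrays with both Xist and Eif2s3y, 15 rose. Ngp, a granule protein, read 7.9 and 12.48 in wild type and 10.8, 11.51 and 12.85 in null and was not called. Of the 5, Fpr2 rose from 7.04 and 8.57 to 12.21, 11.89 and 12, a formyl peptide receptor, by 4.23 ± 0.48. Wild-type replicate 2 was also higher for cell cycle genes, with a list mean of 8.50 against 7.56 in replicate 1 and 8.78 to 9.04 in null. Of 25 cell cycle genes 15 rose and 1 fell, but 7 rose without wild-type replicate 1 and 9 without null replicate 3. Mki67 read 7.66 and 9.88 and 10.27, 10.09 and 10.37, and its call was lost without wild-type replicate 1 (0.36) and without each null array (1.41 to 1.55) or hTNF replicate 3 (1.47). The erythroid list mean was 8.10 and 8.90 in wild type and 7.87, 7.96 and 9.10 in null, so marrow-type genes moved with single arrays in both groups; their part in the results was not tested.

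Of 15 T and NK cell genes 7 rose and 1 fell (median 0.46), among them Il7r (1.74) and Thy1 (1.94), which synovial fibroblasts also carry. Of 17 B and plasma cell genes 3 rose and 5 fell (median -0.59), near the shares over all genes (19.1% and 23.8%). Those that rose were Prdm1 (1.69), Sdc1 (1.58), which epithelia also carry, and Blnk (0.79), which lost its call without wild-type replicate 1 (0.30), null replicate 1 (0.73) or null replicate 2 (0.74). The count that fell was 0 without wild-type replicate 2, whose list mean was 9.81 against 8.86 in replicate 1 and 9.04 to 9.16 in null. It was 11 without wild-type replicate 1, 2 without null replicate 1 or 2, 1 without null replicate 3 and 3 without hTNF replicate 3. Of 5 mast cell genes 3 fell, the proteases Cpa3 (-1.08) and Cma1 (-1.0) and the receptor Kit (-1.06). Hdc rose by 0.72, the enzyme that makes histamine, losing the call without wild-type replicate 1 (0.56), and Mcpt4 was under the filter. For Kit a second probe set differed by -0.35 and was not called.

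Of 18 adhesion molecules 14 rose and 2 fell (median 1.46). Icam1 rose from 7.97 and 8.23 to 11.07, 10.97 and 10.87, a ligand of leukocyte integrins, by 2.87 ± 0.16. Sele rose from 5.93 and 5.54 to 8.55, 7.68 and 7.91, E-selectin, which endothelium shows only when activated, by 2.31 ± 0.29. Vcam1 rose by 0.61, losing the call without wild-type replicate 1 (0.31). Of 22 endothelial genes 3 rose and 7 fell (median -0.30), 4 falling without wild-type replicate 2, which is near the shares over all genes (19.1% and 23.8%). Tek, the angiopoietin receptor, read 9.63 and 9.79 in wild type and 8.99, 8.52 and 8.64 in null (-0.99 ± 0.18), and Sox17 (-1.52) and Cldn5 (-0.80), a tight-junction gene, fell, while Pecam1 (-0.04) and Cdh5 (-0.28), found on all endothelium, were not called.

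Among lipid mediator genes, 5 of 15 prostaglandin genes rose and 3 fell, where 19.1% of all genes rose and 23.8% fell: the receptor genes Ptger2 (2.48) and Ptger4 (1.55) and the synthase gene Ptges (0.80) rose, and Hpgd, which inactivates prostaglandins, fell (-1.07). Of 14 leukotriene genes 8 rose and 2 fell, with Alox5ap read at 10.72 and 11.07 and 12.88, 12.83 and 12.76, and Alox5 (1.40). Pla2g7, a secreted phospholipase of macrophages, rose by 3.40 ± 0.28. Arg1, arginase 1, read 4.87 and 5.6 in wild type and 8.73, 10.67 and 9.44 in null, with the null arrays far apart. Its difference of 4.38 ± 1.25 lost the call without null replicate 2 (3.85), wild-type replicate 1 (4.01) or wild-type replicate 2 (4.74). Arg2 rose by 2.50. Of 14 arginine and polyamine genes 8 rose and 3 fell, and 3 to 5 rose without a wild-type array or null replicate 3.

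Most metalloproteinases that degrade matrix rose, and their inhibitors moved both ways. Of 13 matrix metalloproteinases 9 rose and none fell (median 1.11). Mmp13 rose from 9.22 and 10.11 to 12.53, 12.76 and 12.62, collagenase 3, by 2.97 ± 0.23. Mmp14 rose from 9.52 and 9.53 to 11.75, 11.13 and 11.3, a membrane-bound activator, by 1.87 ± 0.19. Mmp12 read 6.77 and 7.85 and 9.4, 10.4 and 9.56 and was not called without wild-type replicate 1 (1.94) or null replicate 2 (2.17). Mmp19 rose by 2.10. Mmp9 rose by 2.18 ± 0.53, with the wild-type arrays far apart at 8.62 and 10.93. Its difference ran from 1.03 to 3.34 with 1 array left out. Of 17 ADAMTS, ADAM and TIMP genes 11 rose and 3 fell. Adam8 rose from 7.0 and 7.19 to 10.8, 10.91 and 10.81, a leukocyte and osteoclast protease, by 3.74 ± 0.12. Adamts4, an aggrecanase, rose by 1.08, and Adamts5, another, differed by -0.08. Timp1 rose by 2.73, whereas Timp3 (-1.23) and Timp4 (-2.17), the latter bright in muscle and fat, fell. Another Timp3 probe set differed by -0.37 and was not called. Of 15 genes of plasminogen activation and clotting 7 rose and 4 fell, where 19.1% of all genes rose and 23.8% fell. F10 (2.94), F7 (2.72) and the urokinase receptor Plaur (2.45) were highest.

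Most osteoclast genes rose, and more of the secreted Wnt regulators fell than rose. Of 18 osteoclast genes 13 rose and 1 fell (median 1.16). Ctsk rose from 11.28 and 12.29 to 13.48, 13.63 and 13.49, cathepsin K, by 1.75 ± 0.23. Acp5 rose from 9.59 and 11.41 to 12.37, 12.3 and 12.37, tartrate-resistant acid phosphatase, by 1.85 ± 0.43, with the wild-type arrays far apart. Dcstamp rose by 1.87, needed for osteoclast fusion. Tnfsf11, which encodes RANKL, rose by 0.58, losing the call without wild-type replicate 1 (0.34), null replicate 1 (0.53) or null replicate 3 (0.56), and its decoy receptor, osteoprotegerin, encoded by Tnfrsf11b, read 8.26 and 7.99 in wild type and 6.86, 6.77 and 7.02 in null (-1.24 ± 0.14). The receptor of RANKL, Tnfrsf11a, rose by 0.99, and Csf1 (0.78) and Il34 (0.75), ligands of the macrophage growth receptor, rose too. Of 16 Wnt ligands and secreted antagonists 2 rose and 9 fell (median -0.79). Frzb fell from 9.85 and 9.89 to 7.62, 7.95 and 7.3, a difference of -2.25 ± 0.21. Sost fell from 9.96 and 9.32 to 8.44, 8.25 and 8.05, the osteocyte inhibitor sclerostin, a difference of -1.39 ± 0.28. Dkk1 fell from 8.14 and 7.96 to 6.63, 7.24 and 6.79, a difference of -1.16 ± 0.18, and Sfrp5 (-2.10) and Sostdc1 (-1.59) fell too. Sfrp2 (1.79) and Dkk3 (0.77) rose. Of 13 osteoblast and osteocyte genes 5 rose and 4 fell (median -0.01), where 19.1% of all genes rose and 23.8% fell. Mepe (-1.53) and Phex (-0.98), of osteocytes, fell, Phex losing the call without wild-type replicate 2 (-0.77). Pdpn, also of this list, rose by 1.98, and Dmp1 read 9.9 and 10.38 in wild type and 9.56, 10.01 and 9.83 in null. Col1a1 rose by 0.99, another Col1a1 probe set differing by 0.36 and not called.

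Most cartilage genes fell, and most connective tissue collagens rose. Of 20 cartilage genes 14 fell and 2 rose (median -0.74), and 8 fell without wild-type replicate 1. Acan fell from 12.06 and 11.72 to 10.26, 10.44 and 10.29, the aggregating proteoglycan, a difference of -1.56 ± 0.14. Cytl1 fell from 13.7 and 13.53 to 11.08, 11.6 and 10.85, a secreted cartilage protein, a difference of -2.44 ± 0.24. Chad fell from 13.75 and 13.65 to 12.01, 12.33 and 11.94, chondroadherin, a difference of -1.61 ± 0.12. Sox9, the factor that drives chondrocyte genes, fell by 0.87, losing the call without wild-type replicate 1 (-0.65). Col2a1, the main cartilage collagen, read 9.78 and 10.41 and 9.38, 10.07 and 9.84 and was not called (-0.33). Of 18 connective tissue collagens 15 rose and none fell (median 1.03). Col12a1 rose from 9.18 and 9.22 to 11.22, 10.7 and 11.17 by 1.83 ± 0.16. Col5a1 rose from 10.85 and 10.97 to 12.53, 12.52 and 12.63 by 1.65 ± 0.11. Col1a1 and Col3a1, the bulk collagens, rose by 0.99 and 0.93, another Col1a1 probe set differing by 0.36 and not called. Of 12 tendon genes 2 rose and 5 fell, 3 falling without wild-type replicate 1, and of 13 small leucine-rich proteoglycans 4 rose and 3 fell. Beside these counts, 19.1% of all genes rose and 23.8% fell. Tenomodulin, Tnmd, differed by 0.17.

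Of 23 synovial fibroblast genes 11 rose and 4 fell (median 0.38), and 7 rose without wild-type replicate 1. Pdpn rose from 10.24 and 10.1 to 12.2, 12.12 and 12.12, podoplanin, by 1.98 ± 0.09. Beside the counts of this list, 19.1% of all genes rose and 23.8% fell. Postn rose by 2.29, a matrix protein of remodelling tissue. Of 4 lining-layer genes 2 fell: Clic5 fell from 11.64 and 11.22 to 9.26, 9.01 and 8.79, a difference of -2.41 ± 0.17, and Htra4 fell by 1.45. Prg4, the lubricant lubricin, read 14.49 and 14.52 and 14.3, 14.52 and 14.39, and Has1, a hyaluronan synthase, read 9.64 and 9.51 and 9.75, 9.51 and 9.5; neither was called.

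Every measured contractile gene of skeletal muscle fell. The 33 genes had a median of -1.80, and their mean was 13.56 and 13.55 on the wild-type arrays and 12.11, 11.45 and 11.72 on the arrays labelled null. Differences ran from -0.60 for Myh1 to -2.87 for Myl3. Next to Myl3 came Myom2 (-2.8) and Nrap (-2.67). Of slow-fibre genes, Myh7 fell from 12.94 and 13.17 to 10.87, 9.97 and 10.43, the slow myosin heavy chain, a difference of -2.63 ± 0.30. Tnni1 fell from 13.01 and 12.79 to 11.14, 9.8 and 10.15, slow troponin I, a difference of -2.54 ± 0.33. The fast-fibre genes Mylpf (-1.47 ± 0.18) and Tnnt3 (-1.43 ± 0.19) fell less in these values. Fast against slow was not tested, and the genes named were picked from the 33. The brightest probe sets are near the top of the scale, Acta1 at 14.77 and 14.72 in wild type. Myh4, the fast IIb myosin, spread across the null arrays at 11.44, 12.33 and 12.9, with 13.88 and 14.3 in wild type and 10.84, 11.11 and 10.48 in hTNF, a difference of -1.87 ± 0.36. Of 19 genes of calcium release and muscle energy 18 fell (median -1.90). The remaining one, Atp2a2, a calcium pump of slow muscle and many other cells, rose by its brightest probe set (0.35; 0.28 and not called without wild-type replicate 1) and fell by 2 others (-1.77 and -1.59). Among 17 regulators of muscle mass and innervation 13 fell and 1 rose. Fbxo32 (-1.90) and Trim63 (-2.68), the ubiquitin ligases of muscle wasting, fell, as did the myogenic factors Myf6 (-2.69) and Myod1 (-1.72) and the acetylcholine receptor subunit Chrna1 (-2.54). Runx1, which leukocytes and denervated muscle both express, rose (1.25), with 2 other probe sets at 0.06 and -0.02 not called.

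Mitochondrial genes were lower. Of 28 oxidative phosphorylation subunits all 28 fell (median -0.92). The muscle-type subunits Cox8b (-2.87), Cox7a1 (-2.67) and Cox6a2 (-2.36) fell most, and the widely expressed Cox4i1 (-0.46) fell less. Of 23 genes of fat oxidation and the citric acid cycle 22 fell, with the coactivator Ppargc1a at 8.06 and 7.85 and 6.29, 6.05 and 6.04 (-1.83 ± 0.17). Of 25 glycolysis and hypoxia genes 9 rose, 6 fell and 10 were not called (median 0.20). Among all genes 19.1% rose and 23.8% fell, and the 6 that fell here are near the latter share. Pfkm, of muscle, fell by 1.74, and Pfkl and Pfkp rose by 1.56 and 1.05, another Pfkp probe set differing by 0.45 and not called. Pgam1, of many tissues, rose by 1.88, and Pgam2, of muscle, fell by 2.28. Hif1a, the hypoxia factor, rose by 1.49.

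Fat and nerve genes were lower as well. Of 21 adipocyte genes 19 fell and 1 rose (median -1.68); it was Acly (0.39), not called without wild-type replicate 1 (0.34). Adipoq fell from 13.11 and 13.51 to 10.99, 11.25 and 10.98, adiponectin, a difference of -2.24 ± 0.20. Pparg fell from 9.3 and 9.75 to 7.22, 7.2 and 6.79, the factor that directs fat cell fate, a difference of -2.46 ± 0.19. Plin4, of lipid droplets, fell by 2.86. Of 12 Schwann cell genes 10 fell and 1 rose (median -0.97). S100b fell from 10 and 10.14 to 8.06, 8.14 and 7.96, a difference of -2.02 ± 0.15. Cdh19 fell from 8.43 and 8.33 to 6.52, 5.99 and 6.31, a difference of -2.11 ± 0.22. The 1 that rose, Egr2 (1.04), is a myelin factor that activated leukocytes also express.

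**Figure D4:**
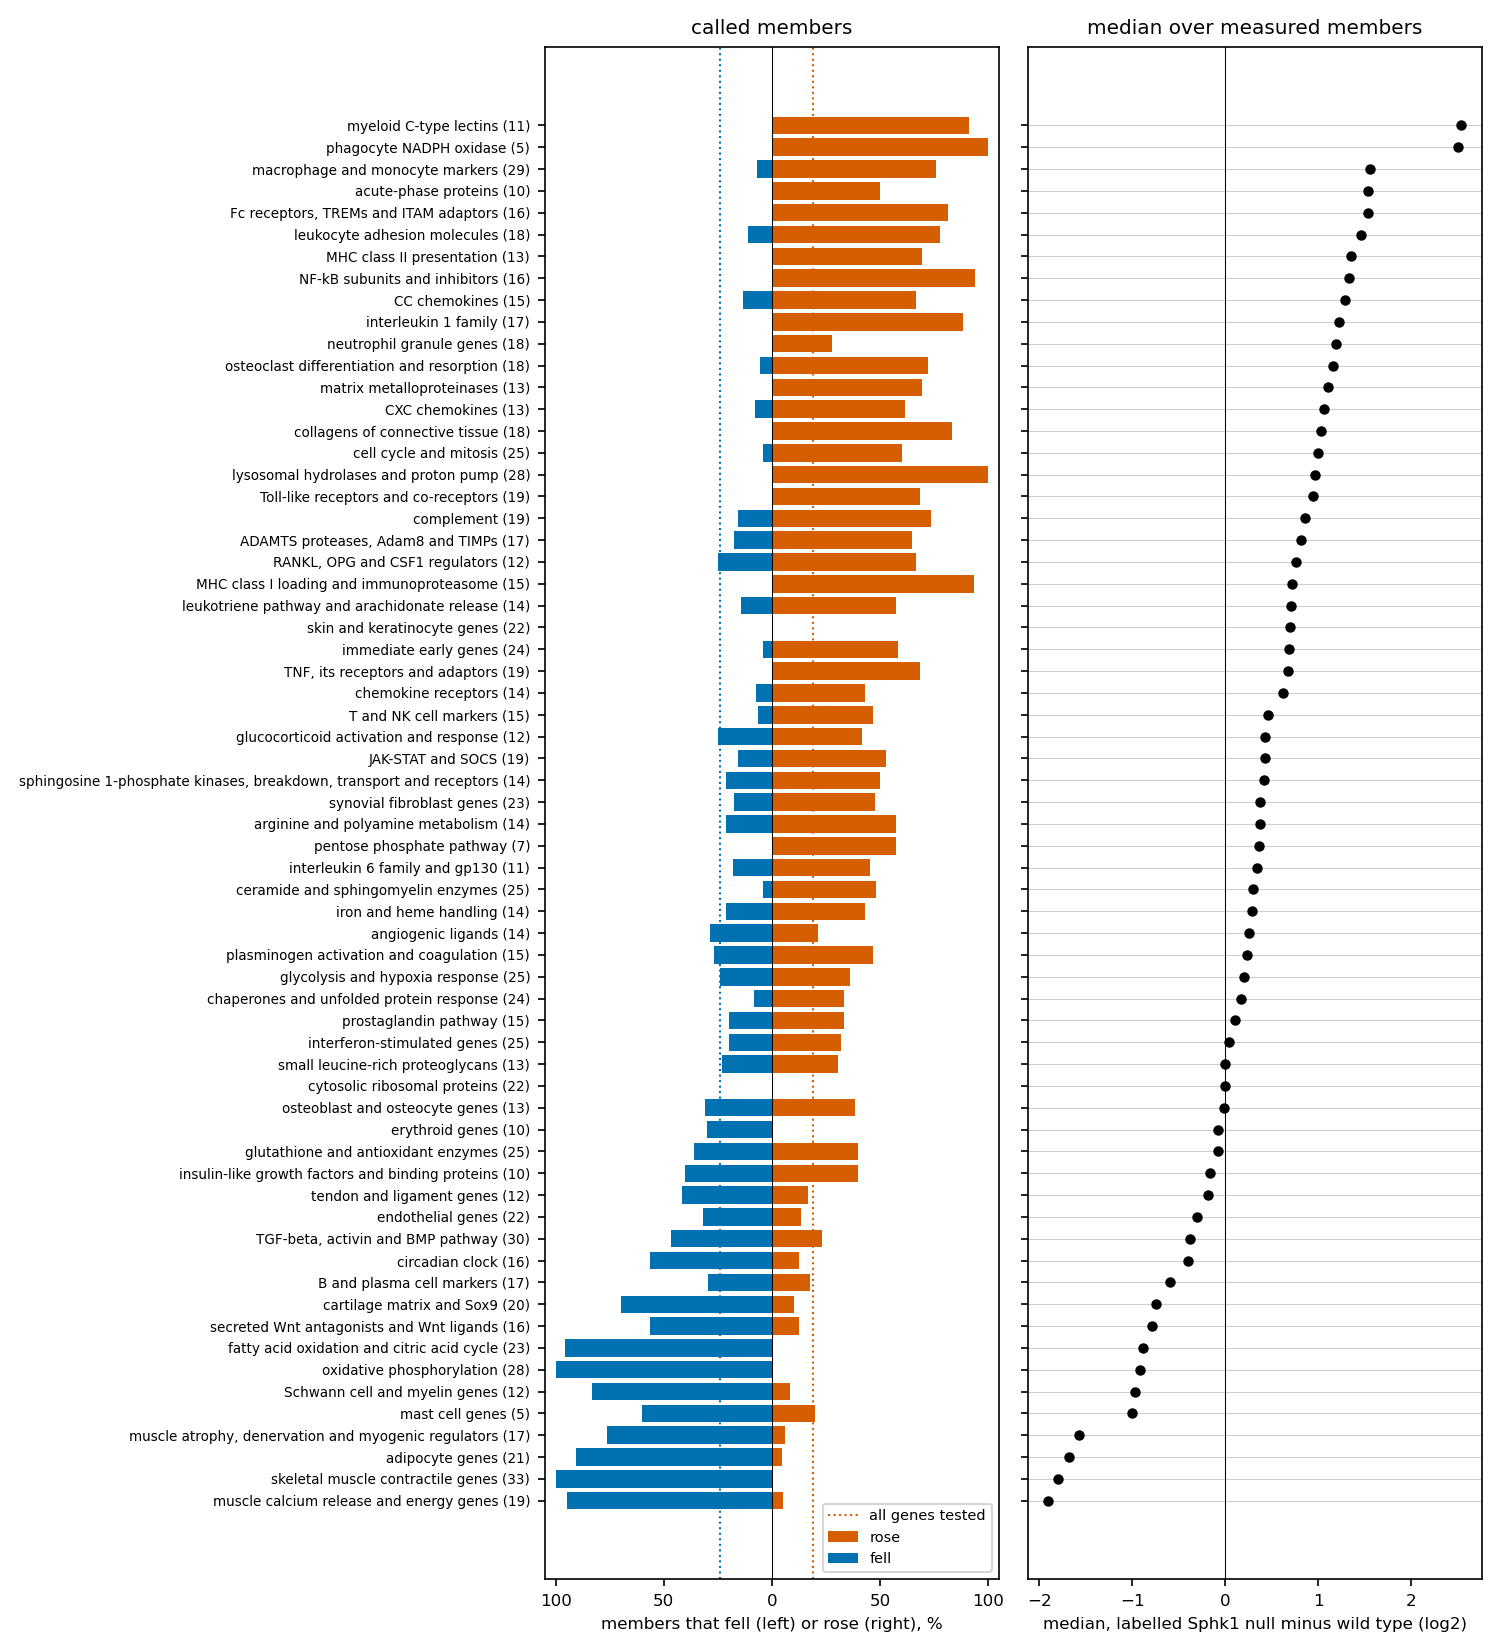
Share of measured members that fell or rose (left, %) and median difference (right, log2) for 64 gene lists, with the number measured in brackets and the shares over all genes as dotted lines. Myeloid lists sit at the top and muscle and fat lists at the bottom; 22 skin genes had none called.

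The null and hTNF groups were tested against each other because both differ from the same wild-type arrays. Of 12362 genes 2 were called, Sphk1 and BC018473 (0.0162% of genes, and 2 of 24115 probe sets, 0.00829%), and 775 had an unadjusted p under 0.05, 295 higher and 480 lower in null. Leaving out 1 array at a time, the difference stayed between 1.41 and 1.60 for Sphk1 and between 2.36 and 2.79 for BC018473. Both remained called only without null replicate 2; without any other array the adjusted p was 0.0572 to 0.19 for Sphk1 and 0.0572 to 0.19 for BC018473. Other genes called against wild type and far from hTNF were not called against hTNF: Per1 at 1.51 (adjusted p = 0.348), Myh4 at 1.41 (0.453), Igha at -1.37 (0.409), Gpr132 at 1.12 (0.54), Sele at 1.05 (0.54) and Il1b at 1.04 (0.438). Against wild type, Per1 (0.94) lost its call without either wild-type array (1.01 and 0.87), null replicate 1 (0.62) or null replicate 3 (0.90), and Igha (-1.21) lost it without wild-type replicate 2 (-0.71). Il1b read 10.47, 10.98 and 11.4 on the hTNF arrays and 12.2, 12.11 and 11.65 on the arrays labelled null. Of the 33 contractile genes 31 had a lower mean in null than in hTNF, and 23 had an unadjusted p under 0.05, with a lowest adjusted p of 0.453. The contractile mean was 12.32, 12.17 and 11.94 in hTNF, so the groups overlapped through null replicate 1.

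Some genes varied widely among the arrays labelled null. Those with the largest range were Krt2, Hrnr, Dsp, Krt10 and Flg, all of skin, and Eif2s3y. Krt10 read 13.12, 7.46 and 11.84 on the arrays labelled null and 10.56 and 8.5 in wild type. The mean of 22 skin genes was 9.50, 6.88 and 8.79 in null, 7.99 and 7.27 in wild type and 10.93, 6.64 and 8.40 in hTNF, and none was called. With the skin mean as a covariate, 9147 probe sets were called against wild type. As a contrast, 22 ribosomal protein genes, none of which was called, differed by -0.11 to 0.14.

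**Figure D5:**
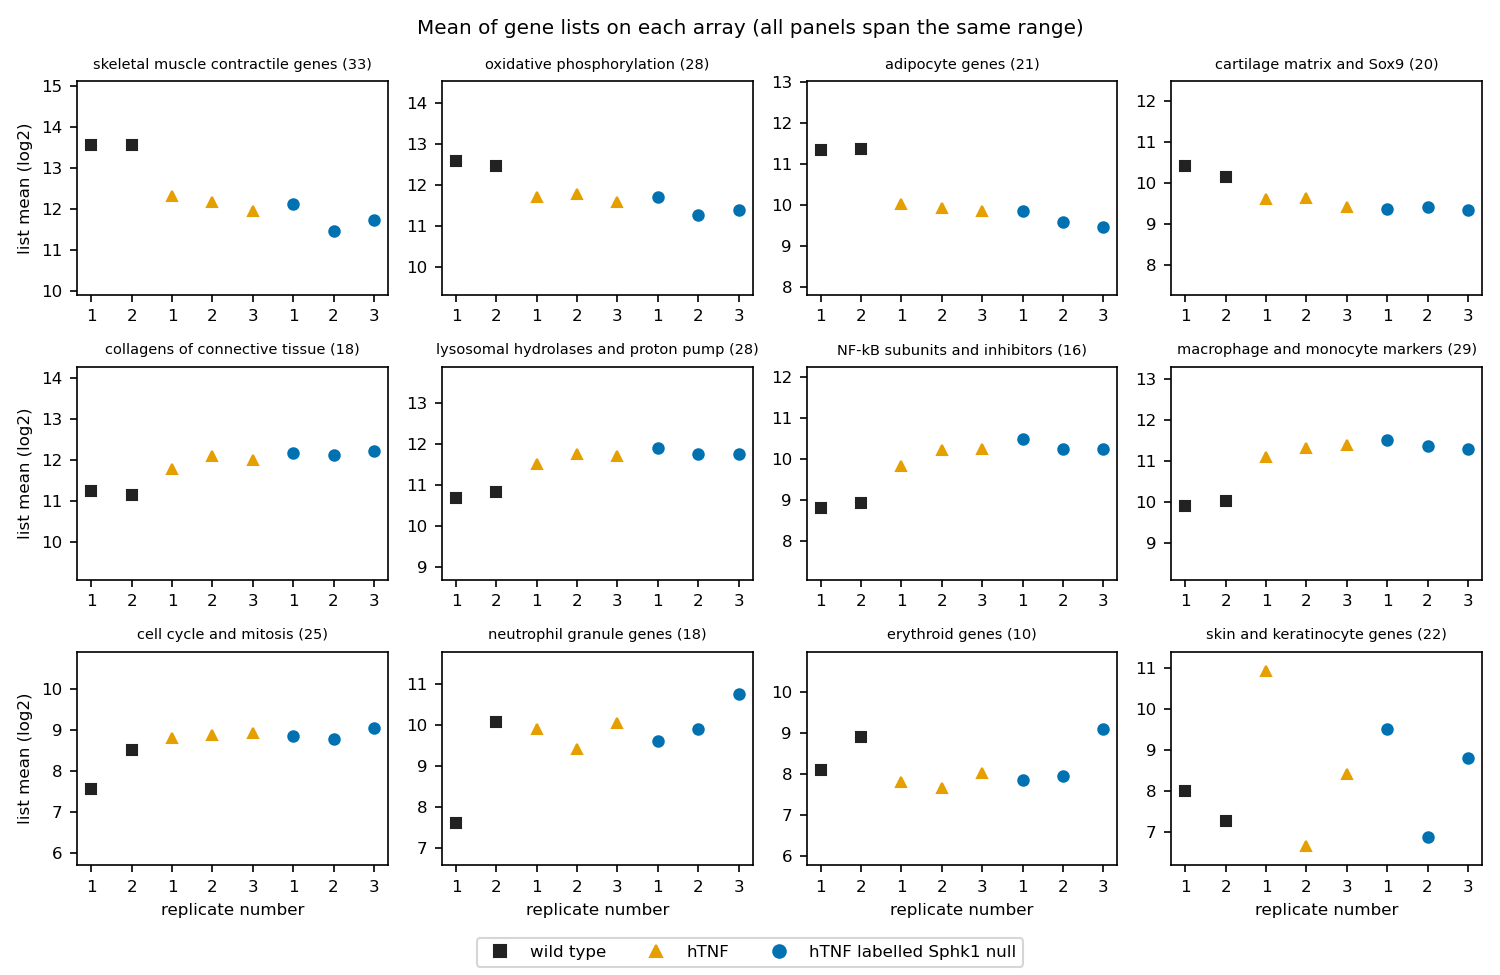
Mean log2 value of 12 gene lists (y axis) on each array (x axis, replicate number within group; squares wild type, triangles hTNF, circles hTNF labelled Sphk1 null), with every panel spanning the same range. Muscle, fat, lysosomal and NF-kB means separate wild type from null, while neutrophil, erythroid and skin means vary as much within groups.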

How the data were processed

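Whole ankle joints were measured on 8 single-colour Affymetrix arrays, 1 per sample. The authors deposited 1 table of log2 values rounded to 2 decimals; the tools named, per the submitters' processing notes, are Affymetrix Expression Console, MAS5 and RMA, and the sources used here do not say which of these made the values. Array medians are level, so differences in total RNA are not visible, and summarised values compress very bright and very dim probe sets. A fold is a fold of brightness. For arrays, their number limits the precision; the median standard error of a null minus wild-type difference was 0.15. No scan date or batch is given in the labels or the table.

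Gene names came from the annotation of the array platform, with symbols updated through a GRCm38.p6 gene table that 34741 of the 34945 single-gene probe sets matched. Of the others 932 had several genes, 9160 had none listed and 64 were controls. Probe sets above 6.87, the table's median, on 2 or more of the 8 arrays were tested. limma 3.58.1 (R 4.3.3) fitted 1 mean per group to all 8 arrays, with moderated variances and an intensity trend (5 residual degrees of freedom); adjusted p is Benjamini-Hochberg over 24115 probe sets. The script was tested on simulated data. A gene is shown by its brightest tested probe set annotated to it alone. Python 3.11.15 with pandas 2.3.3 and matplotlib 3.10.9 made the counts and figures. Promoter windows are those of RefSeq, GRCm38.p6.

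The genes named were the 12 largest rises and 12 largest falls whose groups do not overlap, in each list the 5 largest called changes at most (or the 2 smallest p), the 8 genes furthest from hTNF, the 6 with the widest range among the null arrays and a fixed set; further genes were named after their values were seen. The members and the 65 gene lists were chosen with earlier results of these data known. Alternatives were the arrays fitted, the filter, normalization, offset, variance model, replicate block, skin and Y-linked covariates, threshold, probe set and each array left out.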

Additional observations from a re-analysis of the deposited data

Results flagged for a closer look

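In 2 genes the test between the transgenic groups was passed, so with all arrays the change from wild type differed with the Sphk1 label. Both calls were lost on leaving out any single array except null replicate 2, and without the 3 arrays with both Xist and Eif2s3y. BC018473 was higher in null than in hTNF by 2.51 log2 units (limma adjusted p = 0.0164), every null array lying above every hTNF array. It passed the filter of 6.87 only through the null arrays, so that separation adds no support. Sphk1 was higher by 1.53 (limma adjusted p = 0.0164), again with every null array above every hTNF array. The share of all genes separated in this way was not counted, so the separation is description only. Groups of 2 and 3 arrays are too small for the check of single outlying arrays.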

How the results depend on the processing

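Against wild type, 6295 to 10391 probe sets were called under the other settings and 6314 to 10482 when 1 array at a time was left out (9395 with all). At an adjusted p under 0.01, 2938 rose; without 1 array, 3221 to 6052 fell, the lowest without wild-type replicate 1, and 3093 to 4737 rose. Called list members numbered 593 to 740 against 732. Between the transgenic groups 2 probe sets were called, 1 with the filter at 8, 6 after quantile normalization, 14 with the Y-linked covariate, 0 without the arrays with both Xist and Eif2s3y, and 0 to 3 without 1 array.

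Same-numbered arrays of null and hTNF correlated at 0.228, 0.054 and 0.251 after removing group means, and null replicate 2 correlated better with hTNF replicate 3 (0.37), so the numbers were not taken to pair the samples. With the replicate block 7770 probe sets were called against wild type. Another probe set, itself called, turned the sign for Mbp (0.53 and 1.41), Sema4d (-1.40) and Atp2a2 (-1.77 and -1.59). Probe sets that were not called turned it for Atp2a2 (-0.14), Ighm (0.25 to 0.33, 0.29 among them), S1pr3 (0.16 and 0.22), Thrsp (0.11), Cfp (-0.12), Socs7 (0.04), Sphk2 (-0.14), Sptb (0.06) and Runx1 (-0.02), and H2-D1 read 0.00; the cause was not tested. Leaving out 1 array, 88 of 3096 values of named genes lost the call; with another probe set 26 of 262 lost it in the same direction and 19 turned the sign. The number of arrays, 2 in the wild-type group, limits the precision.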

Other observations

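Counts of other gene groups are given here beside the 19.1% of all genes that rose and the 23.8% that fell; for several they are near those shares, among them the angiogenic ligand and erythroid genes. Of 30 genes of TGF-beta, activin and BMP signalling 7 rose and 14 fell (median -0.38), with Fst, follistatin, which binds activin, at 10.11 and 10.06 in wild type and 8.57, 7.72 and 7.85 in null (-2.04 ± 0.25). The BMP antagonist Chrdl1 fell by 1.89, the ligands Bmp5 and Bmp6 fell by 1.76 and 1.60, and the target Id4 fell by 1.64. Ltbp2, a matrix protein of this family, rose by 1.13. Of 24 immediate early genes 14 rose and 1 fell (median 0.69), led by Ier3 (1.84), Junb (1.60), Fosl2 (1.55) and Fos (1.32); a second Fosl2 probe set differed by 0.14. Of 10 insulin-like growth factor genes 4 rose and 4 fell, and Igf2 fell by 1.52.

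Of 16 circadian clock genes 9 fell and 2 rose (median -0.40), and 5 fell without wild-type replicate 2. Cry2 and Tef, a repressor and an output gene of the clock, fell by 0.95 and 1.02, though a second Tef probe set differed by -0.14. Hour of death is not given in the labels. Of 12 glucocorticoid genes 5 rose and 3 fell, 3 rising without wild-type replicate 1, wild-type replicate 2 or null replicate 1; Mt2 rose by 1.23 and Zbtb16 fell by 1.83. Of 25 antioxidant genes 10 rose and 9 fell, with Slc7a11, the cystine importer, at 1.51 and Gsta4 at -2.26. Of 24 chaperone genes 8 rose and 2 fell, with 5 rising without wild-type replicate 1, and Hspb1 fell by 1.47. Of 7 pentose phosphate genes 4 rose, led by Pgd (1.08); 1 or 2 rose without either wild-type array, null replicate 1, null replicate 3 or hTNF replicate 3. Of 14 angiogenic ligands 3 rose and 4 fell, 2 falling without wild-type replicate 1. Of 10 acute-phase genes 5 rose, of 10 erythroid genes 3 fell and of 14 iron genes 6 rose and 3 fell.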
